A study of Mus musculus with 10 samples.

Results

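The genes of the calcitonin gene-related peptide (CGRP) and adrenomedullin system were followed in aortas taken from male mice of strain C57BL/6 that were either wild type or Ptgds-/- (knockout). Ptgds encodes lipocalin-type prostaglandin D synthase, an enzyme that makes prostaglandin D2. The set holds 8 genes: the receptor Calcrl, the receptor activity-modifying proteins Ramp1, Ramp2 and Ramp3, and the peptide genes Calca, Calcb, Adm and Adm2. Its members were all probe sets that the platform annotation assigns to 1 of these symbols alone, 12 of 45101 probe sets on the Affymetrix array. They cover 7 of the 8 genes; no probe set used here carries the symbol Calca, so that gene is not analysed. Total RNA of whole aorta was hybridised to 1 array per sample, and the groups compared are 4 wild type and 5 knockout arrays, called biological replicates in the labels. One more wild type sample, replicate 2, was left out by the authors per the labels, and its column is empty. All mice were fed chow on a cycle of equal light and dark; the age of the mice, the exons lost from the Ptgds allele and the source of the wild type mice are not given in the sources used here.

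CGRP and adrenomedullin are peptides that relax arteries. They share one receptor, the calcitonin receptor-like receptor encoded by Calcrl, which reaches the cell surface and gains its ligand preference through a RAMP partner. With RAMP1 it is the CGRP receptor, and with RAMP2 or RAMP3 it is an adrenomedullin receptor; both couple mainly to the Gs protein and raise cyclic AMP. In vessels, CGRP is released by sensory nerve endings in the outer wall and acts on smooth muscle, while adrenomedullin is made by the vessel's own cells and its RAMP2 receptor is needed by the endothelium.

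The arrays were alike in level, with median log2 values of 5.88 to 5.97, and the mean correlation of an array with the others was 0.983 for wild type replicate 3 and 0.990 to 0.992 for the other 8. Ptgds on probe set 1423859_a_at lay from 8.68 to 10.31 on the wild type arrays and from 3.67 to 4.40 on the knockout arrays, so the genotypes matched the labels. Defining smooth muscle markers were abundant, with Acta2 at 13.91 and 13.96, Myh11 at 13.78 and 13.86 and Tagln at 13.62 and 13.74 (mean log2 values, wild type and knockout). Transcripts of surrounding tissue were also present: the brown fat gene Ucp1 had means of 12.96 and 12.79, and the mean of 19 peripheral neuron markers ran from 4.68 on wild type replicate 5 to 10.33 on wild type replicate 3, with knockout replicate 1 at 8.57. In RNA from whole tissue, fewer cells of a type and less RNA per cell cannot be told apart.

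The test took in probe sets with a log2 value over 4 in 4 or more arrays, which held for 7 of the 12 members and 26504 probe sets in all. Levels are given as log2 values, and a change is the knockout mean minus the wild type mean on that scale. In limma, adjusted by Benjamini-Hochberg over all 26504 probe sets with a threshold of 0.05, 0 of the 7 members passed, against 21 of all probe sets (0.0792%). At an unadjusted p under 0.05 there were 2 of 7, both probe sets of Ramp1, and 18.9% of all probe sets reached that level. In 0 of the 7 members were the groups free of overlap, against 6.42% of all probe sets. Of the 7, 5 had a higher and 2 a lower knockout mean, and the 5 include 2 probe sets each of Ramp1 and Adm. Over all tested genes, each by its brightest probe set, 56.7% had a higher knockout mean. The median change of the 7 was 0.08, beside 0.01 over all tested probe sets.

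**Figure D1:**
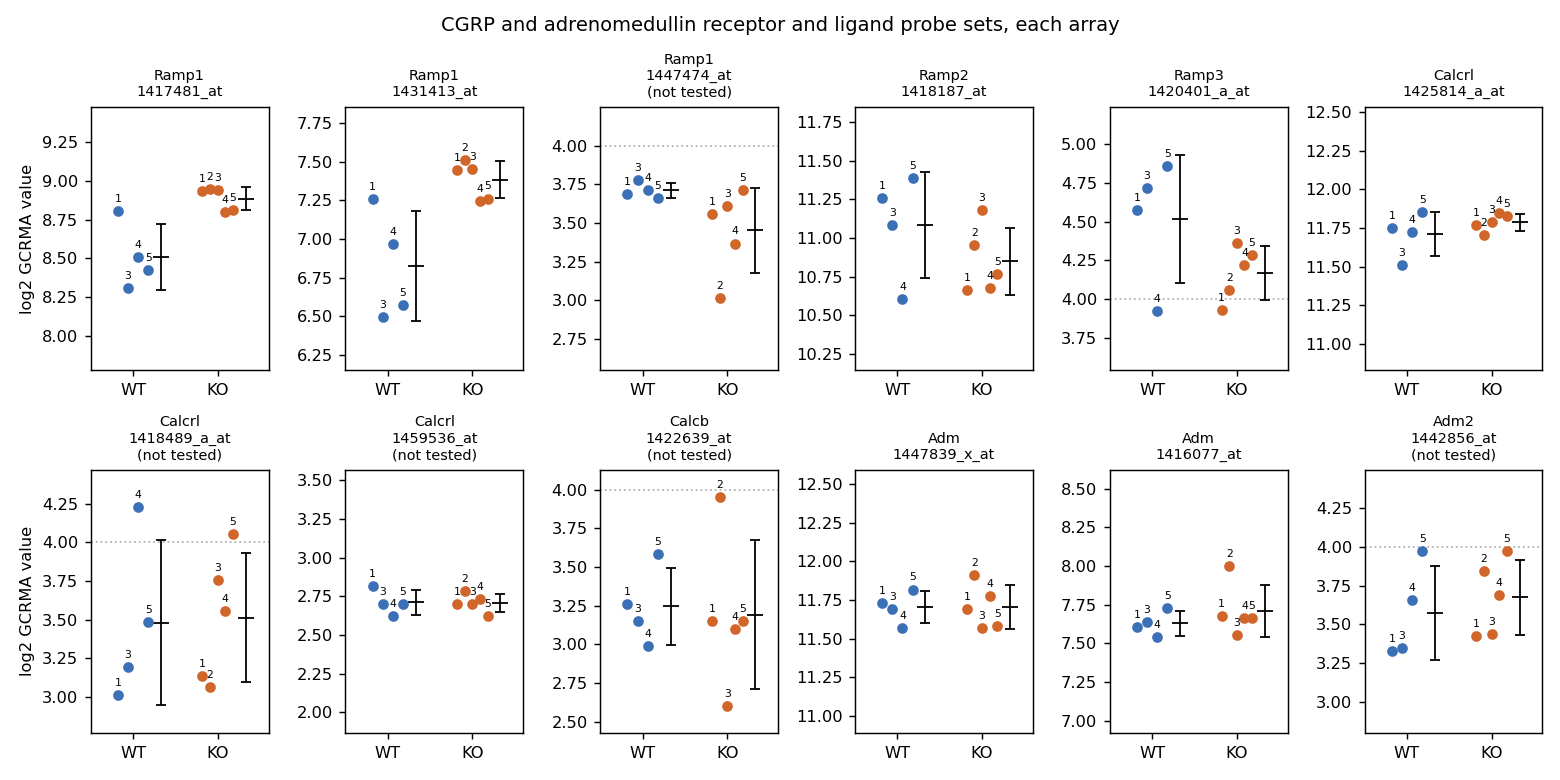
Log2 value of each of the 12 member probe sets on each array, wild type (WT, blue) and knockout (KO, orange), with replicate numbers beside the points; black bars give the mean and SD, and the dotted line marks a log2 value of 4. Every panel spans the same number of log2 units: both tested Ramp1 probe sets lie higher in the knockout except for wild type replicate 1, while Calcrl 1425814_a_at and both Adm probe sets overlap throughout.

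Promoters are shown for Ramp1, the receptor partner with the largest change, for the receptor Calcrl itself and for the main measured ligand, Adm. The changes of these genes did not pass the test, and a relation of sequence to level was not tested. RefSeq's promoter table for GRCm38.p6 held 6 of the 8 members; Ramp2 and Calcb were not matched. The 250 bases before the annotated start are given 5′ to 3′ on the gene's strand, with motif matches on either strand in capitals.
Ramp1 chr1:91179572-91179821, plus strand: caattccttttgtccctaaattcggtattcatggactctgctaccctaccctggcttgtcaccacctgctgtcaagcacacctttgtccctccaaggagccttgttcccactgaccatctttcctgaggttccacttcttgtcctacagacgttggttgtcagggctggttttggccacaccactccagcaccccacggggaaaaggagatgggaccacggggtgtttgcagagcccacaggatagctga
Calcrl chr2:84425267-84425516, minus strand: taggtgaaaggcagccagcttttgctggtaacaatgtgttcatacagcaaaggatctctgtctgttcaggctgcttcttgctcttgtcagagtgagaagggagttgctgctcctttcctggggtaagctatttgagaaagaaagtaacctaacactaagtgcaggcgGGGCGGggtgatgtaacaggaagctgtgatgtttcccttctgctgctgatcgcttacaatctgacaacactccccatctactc
Adm chr7:110627407-110627656, plus strand: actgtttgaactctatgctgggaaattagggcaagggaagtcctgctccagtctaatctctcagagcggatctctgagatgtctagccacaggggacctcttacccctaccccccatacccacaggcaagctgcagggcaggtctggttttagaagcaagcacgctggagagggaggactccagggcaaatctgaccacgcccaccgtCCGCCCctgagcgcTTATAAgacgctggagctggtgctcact
The first motif searched, the half-site of the cyclic AMP response element with the letters TGACG, occurs in 17.8% of 32851 promoter windows of the same length. The core of the hypoxia response element, spelled ACGTG, occurs in 16.6% of them. A TATA box, taken as the letters TATAA, is held by 22.8% of these windows. For a GC box, spelled GGGCGG, the share is 32.7%, and for the CArG box of smooth muscle genes it is 1.47%. The Ramp1 window held 0 matches of the 5 motifs. Calcrl held 1 GC box, and Adm held 1 GC box and, 28 bases before the start, a TATA box that reads on both strands. Among the windows not printed, Ramp3 held 3 GC boxes and Calca 1 half-site of the cyclic AMP response element, and Adm2 held 0 matches. A match describes the letters in this window and is not a binding site.

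Ramp1, the partner that turns Calcrl into the CGRP receptor, had the largest changes of the tested members. On probe set 1417481_at it stood at 8.81, 8.31, 8.51 and 8.42 on the wild type arrays (replicates 1, 3, 4 and 5 in that order), whereas the knockout arrays (replicates 1 to 5) read 8.93, 8.95, 8.94, 8.80 and 8.81. All knockout arrays lay above wild type replicates 3, 4 and 5, and wild type replicate 1 lay inside the knockout range. The mean was 8.51 ± 0.21 (SD, n = 4) in wild type and 8.89 ± 0.08 (SD, n = 5) in knockout, a change of 0.38 (SE 0.10, 95% interval 0.15 to 0.60), or 1.30-fold, with an adjusted p of 0.134 (limma). The exact two-sided permutation p was 0.016, where 4 against 5 arrays allow a smallest value of 0.0079.

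The second Ramp1 probe set, 1431413_at, ordered the wild type arrays in the same way. It read 7.26, 6.50, 6.97 and 6.58 on the wild type arrays in the same order, whereas the knockout arrays read 7.45, 7.51, 7.45, 7.25 and 7.26. Here too wild type replicate 1 alone reached the knockout range. The change was 0.56 (SE 0.15, 95% interval 0.22 to 0.90), or 1.47-fold, with an adjusted p of 0.136 (limma) and an exact permutation p of 0.016. Another probe set, 1447474_at, lay under 4 on all arrays, from 3.02 to 3.78, and was not tested; its mean was 3.71 in wild type and 3.45 in knockout, the opposite order.

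Whether Ramp1 passed the threshold depended on wild type replicate 1 and on array weights, while the direction of its change did not. Without it the change was 0.47 (SE 0.07, adjusted p 0.017, limma) on 1417481_at and 0.70 (SE 0.12, adjusted p 0.020) on 1431413_at, and both passed. Leaving out that array also raised the calls over all probe sets to 1673 (6.31%), so 2 called members of 7 stand beside a far larger background. With array weights, 1417481_at passed (change 0.42, adjusted p 0.048) among 367 probe sets (1.38%), and 1431413_at did not (adjusted p 0.051). In the other direction, without wild type replicate 3 alone the changes were 0.31 and 0.45 (adjusted p 0.249 and 0.253, limma). Without both arrays richest in neuron markers, wild type replicate 3 and knockout replicate 1, the changes were 0.30 and 0.43. Their adjusted p-values were 0.324 and 0.326. With the endothelial marker mean as a covariate they were 0.38 and 0.49. The smooth muscle marker mean, over 12 of 12 markers, ran from 12.24 to 12.41 in wild type and from 12.30 to 12.45 in knockout. It was lowest on wild type replicate 3, which was also lowest for both Ramp1 probe sets. Ramp1 on 1417481_at correlated with it over the 9 arrays at r = 0.65 (exact permutation p 0.054, adjusted over 55 relations 0.295). The rank correlation was 0.40 (exact permutation p 0.291, adjusted 0.554), and within genotype r was 0.54 (exact permutation p 0.216, adjusted 0.792). Without wild type replicate 3 and knockout replicate 2, r was 0.88. The part of this marker mean in the Ramp1 difference was not tested.

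**Figure D2:**
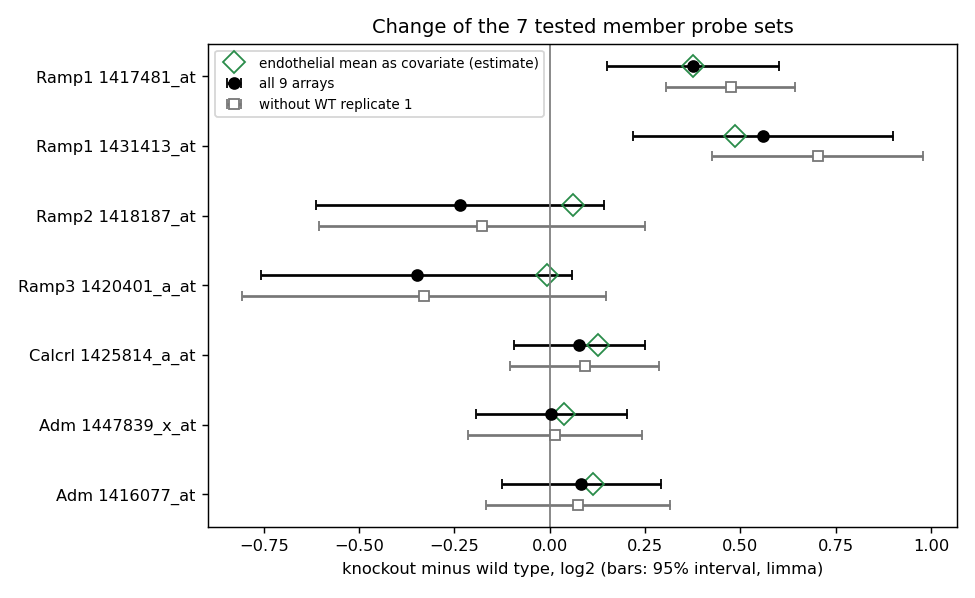
Log2 change (knockout minus wild type) of the 7 tested member probe sets, with 95% intervals from limma over all 9 arrays (circles) and without wild type replicate 1 (squares); diamonds give the estimate with the endothelial marker mean as a covariate. The Ramp1 intervals lie above 0, all others include 0, and the estimates of Ramp2 and Ramp3 move from -0.24 and -0.35 to 0.06 and -0.01 with the covariate.

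Calcrl, the shared receptor, had close means in both genotypes. Probe set 1425814_a_at gave 11.75, 11.51, 11.73 and 11.85 on the wild type arrays in the same order, whereas the knockout arrays read 11.77, 11.71, 11.79, 11.84 and 11.83. The groups overlap, and only wild type replicate 3 lies apart from the others, at the low end. The change was 0.08 (SE 0.08, adjusted p 0.613, limma), and its 95% interval of -0.10 to 0.25 leaves room for a knockout level between 0.936 and 1.19 times that of wild type. The other 2 Calcrl probe sets were not tested: 1418489_a_at ran from 3.01 to 4.23, over 4 only on wild type replicate 4 and knockout replicate 5, and 1459536_at from 2.62 to 2.81. Calcrl shares chromosome 2 with the targeted Ptgds, and 445 protein-coding genes lie between them in the gene order of GRCm38.p6. Linkage between them was not tested.

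Both adrenomedullin partners had lower knockout means that did not pass the test. Ramp2 on probe set 1418187_at read 11.26, 11.08, 10.60 and 11.39 on the wild type arrays in the same order, whereas the knockout arrays read 10.66, 10.95, 11.18, 10.68 and 10.77. Wild type replicate 4 was the lowest of all arrays and knockout replicate 3 lay among the wild type values, so the groups overlap. The change was -0.24 (SE 0.17, 95% interval -0.61 to 0.14, adjusted p 0.476, limma). A further 2 probe sets are annotated to both Ramp2 and Vps25, its neighbour in the gene order, and cannot be given to either; their means were 8.57 and 8.49, and 9.61 and 9.63, in wild type and knockout.

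Ramp3 on probe set 1420401_a_at lay close to the limit of 4. It read 4.58, 4.72, 3.92 and 4.86 on the wild type arrays in the same order, whereas the knockout arrays read 3.93, 4.06, 4.36, 4.22 and 4.29. Wild type replicates 1, 3 and 5 lay above every knockout array, and wild type replicate 4 below all of them. The change was -0.35 (SE 0.18, 95% interval -0.76 to 0.06, adjusted p 0.331, limma). Without wild type replicate 4 it was -0.55 (adjusted p 0.154), and the Ramp2 change was then -0.40 (adjusted p 0.219). Without wild type replicate 5 these changes were -0.23 for Ramp3 and -0.13 for Ramp2.

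The levels of Ramp2 and Ramp3 went with endothelial markers from array to array, and that of Ramp2 went with fibroblast markers to a like degree. The mean of 20 endothelial markers, all over 4 on at least 1 array, was 9.45, 9.36, 9.14 and 9.57 on the wild type arrays in the same order, whereas the knockout arrays read 9.01, 9.18, 9.27, 9.15 and 9.32. The knockout mean was -0.19 relative to wild type, with wild type replicate 4 again among the low arrays; 17 of 20 markers had a lower knockout mean and 0 passed in limma, with 8 at an unadjusted p under 0.05. Over the 9 arrays Ramp2 correlated with this mean at r = 0.86 (rho = 0.90; exact permutation p 0.0035 and 0.0020) and Ramp3 at r = 0.92 (rho = 0.93; exact permutation p 0.00047 and 0.00075). Adjusted over all 55 relations of the 5 tested member genes with 11 marker lists, these p-values were 0.065 and 0.056 for Ramp2, which did not pass, and 0.026 and 0.041 for Ramp3. Without knockout replicate 1 and wild type replicate 5, the arrays farthest from the median, r was 0.75 and 0.84.

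The endothelial list was not alone in this. The mean of 9 fibroblast markers ran from 11.61 to 12.17 in wild type and from 11.64 to 12.00 in knockout, lowest on wild type replicate 4 and highest on wild type replicate 5, as were both genes. Ramp2 correlated with it at r = 0.83 (rho = 0.82; exact permutation p 0.0017 and 0.011, adjusted 0.048 and 0.197), and r fell to 0.65 without these 2 arrays. For Ramp3 the values were r = 0.67 and rho = 0.68 (exact permutation p 0.046 and 0.050, adjusted 0.278 and 0.554), with r = 0.23 without the same arrays, so that relation rests on them. The mean of 6 lymphatic endothelial markers, another cell type known for this receptor, ran from 8.02 to 8.82 in wild type and from 7.95 to 8.66 in knockout. Ramp3 correlated with it at r = 0.70 (rho = 0.65; exact permutation p 0.041 and 0.067, adjusted 0.278 and 0.554) and Ramp2 at r = 0.48 (rho = 0.42; exact permutation p 0.181 and 0.270, adjusted 0.580 and 0.554).

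Within genotype, as deviations from the group means over the 9 arrays, Ramp2 and the endothelial mean correlated at r = 0.82 and Ramp3 at r = 0.88 (exact permutation within groups, p 0.022 and 0.0073). For Ramp2 and the fibroblast mean this was r = 0.86 (exact permutation p 0.016), and after adjustment over the 55 relations none of these 3 passed (0.306, 0.299 and 0.299). With the endothelial mean as a covariate the genotype term was 0.06 for Ramp2 (adjusted p 0.863, limma) and -0.0059 for Ramp3 (adjusted p 0.988). With the fibroblast mean, a covariate added after seeing the data, it was -0.18 for Ramp2 (adjusted p 0.408) and -0.29 for Ramp3 (adjusted p 0.323), and with the lymphatic mean, added likewise, -0.15 (adjusted p 0.773) and -0.19 (adjusted p 0.667).

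Ramp1, Calcrl and Adm showed no relation with the endothelial mean that passed: r was -0.48 (rho = -0.38; exact permutation p 0.193 and 0.313) for Ramp1, 0.04 (rho = 0.17; exact permutation p 0.915 and 0.678) for Calcrl and 0.15 (rho = 0.35; exact permutation p 0.692 and 0.359) for Adm. Adjusted p-values were 0.580 and 0.554 for Ramp1, 0.949 and 0.828 for Calcrl, and 0.827 and 0.580 for Adm. Calcrl had larger r with brown adipocyte (-0.78), peripheral neuron (-0.77), sensory neuron (-0.82) and smooth muscle markers (0.69). Exact permutation p was 0.014, 0.025, 0.037 and 0.040, and none passed (adjusted 0.191, 0.274, 0.278 and 0.278). Without the 2 arrays farthest from each list's median, of which wild type replicate 3 was always 1, r was -0.53, -0.40, 0.02 and -0.34.

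**Figure D3:**
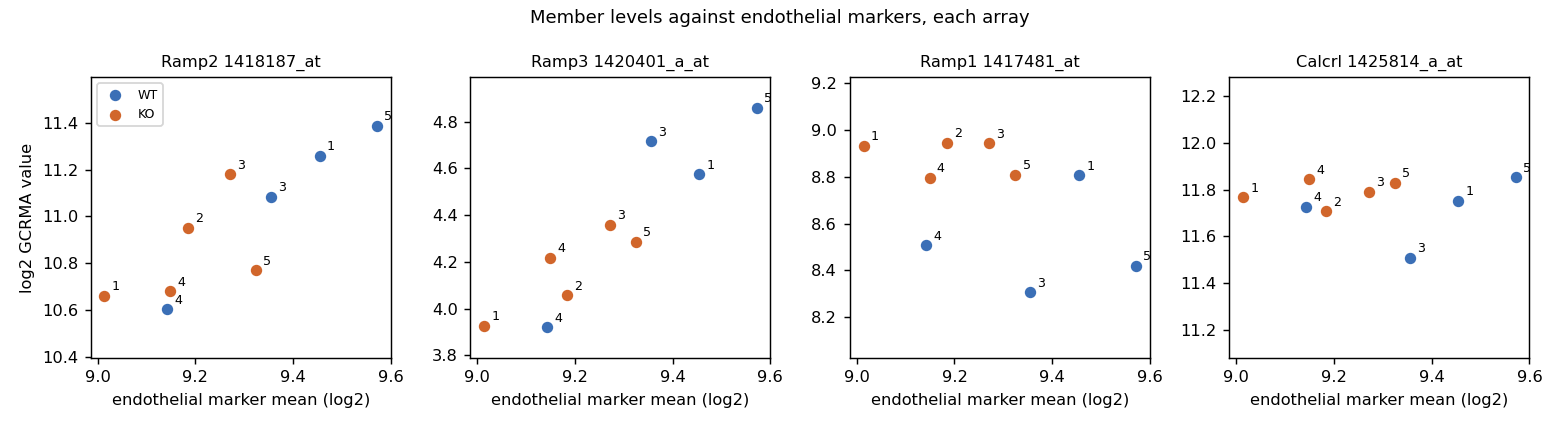
Log2 level of Ramp2, Ramp3, Ramp1 and Calcrl (vertical, same span in each panel) against the mean log2 level of 20 endothelial markers (horizontal) on each array, wild type in blue and knockout in orange with replicate numbers. Ramp2 and Ramp3 climb with the marker mean across both genotypes (r = 0.86 and 0.92), and Calcrl does not (r = 0.04). For Ramp1 wild type replicates 3, 4 and 5 lie below every knockout array. Of these only wild type replicate 4 lies within the knockout range of marker means (9.01 to 9.32).

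Among the ligands, Adm, which encodes adrenomedullin, was the only gene with tested probe sets. Probe set 1447839_x_at read 11.73, 11.69, 11.57 and 11.82 on the wild type arrays in the same order, whereas the knockout arrays read 11.69, 11.91, 11.57, 11.78 and 11.58, with the highest value on knockout replicate 2. The change was 0.0044 (SE 0.09, 95% interval -0.19 to 0.20, adjusted p 0.984, limma), an interval of 0.874 to 1.15 times the wild type level. Probe set 1416077_at read 7.60, 7.64, 7.54 and 7.73 in wild type and 7.68, 8.0, 7.56, 7.66 and 7.66 in knockout, again highest on knockout replicate 2, with a change of 0.08 (SE 0.09, 95% interval -0.13 to 0.29, adjusted p 0.661).

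The remaining ligand probe sets lay under 4 on all arrays and were not tested. Calcb, the gene of the second CGRP form, ran from 2.99 to 3.58 in wild type and from 2.60 to 3.95 in knockout, with the highest value on knockout replicate 2. Adm2, which encodes intermedin, a peptide of the same receptors, ran from 3.32 to 3.97 in wild type and from 3.43 to 3.97 in knockout. Levels this low do not show that either transcript is absent. CGRP is made in sensory neurons, and the sensory neuron markers differed widely in level. Of 9 on the array, 4 (Trpa1, Scn10a, Tac1 and Pou4f1) were under 4 on all arrays and 5 were over 4 on at least 1. Among these 5, the transcription factor gene Isl1 had means of 9.49 in wild type and 9.13 in knockout, and Avil, which encodes advillin, 8.07 and 7.63. Both varied widely between arrays, Isl1 from 8.01 to 10.77 and Avil from 6.58 to 10.46. The mean of the sensory list was highest on wild type replicate 3 (5.26), as was that of the peripheral neuron list (10.33). Whether Isl1 and Avil came from sensory neurons was not tested. The channel gene Trpv1 lay from 4.94 to 5.85, the receptor gene P2rx3 from 4.15 to 4.76 and the sodium channel gene Scn11a from 3.49 to 4.43. The gene order places Calca and Calcb next to each other on chromosome 7, with 24 protein-coding genes between Adm and Calca.

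**Figure D4:**
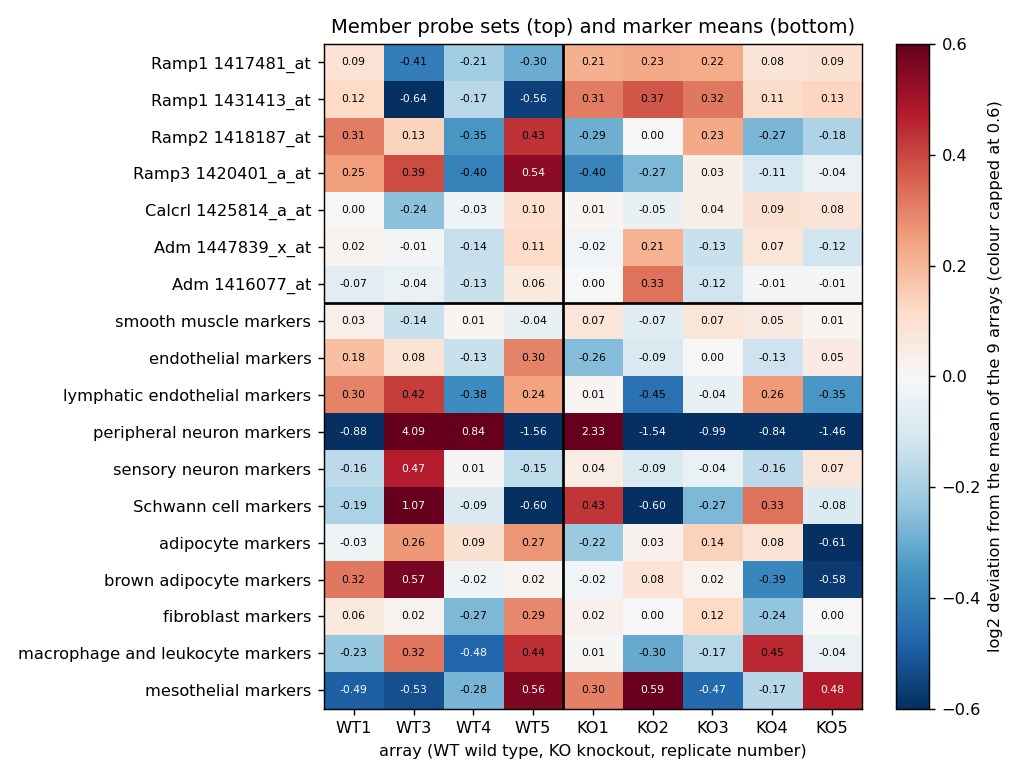
Deviation of each array from the mean of the 9 arrays, in log2 units, for the 7 tested member probe sets (above the line) and the mean of each marker list (below it); columns are the 4 wild type and 5 knockout arrays, and colours are capped at 0.6. Both Ramp1 rows are lowest on wild type replicates 3, 5 and 4, and the Ramp2 and Ramp3 rows are highest on wild type replicate 5 (0.43 and 0.54) and lowest on wild type replicate 4 (-0.35 and -0.404), as is the fibroblast row (0.29 and -0.27), while the endothelial row is highest on wild type replicate 5 (0.30) and lowest on knockout replicate 1 (-0.26).

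Likeness between genes was described by Pearson's r of the deviations from the group means over the 9 arrays, with the brightest probe set of each gene, and the 3 closest of 14320 other genes are named; picked from so many, such values carry no test. Ramp2 and Ramp3 resembled each other at 0.81, while every other pair of the 5 tested member genes lay between -0.23 and 0.33. Closest to Ramp1 were Rxra, a retinoid X receptor (0.98), Denn2b (0.97) and Zfp953 (0.97), whose own changes were 0.13, 0.37 and 0.18. Ramp2 was closest to the aldehyde dehydrogenase gene Aldh3a1, Acpp and the endothelial protein C receptor gene Procr (all 0.96), with changes of -0.63, -0.53 and -0.55. Ramp3 was closest to Depdc1b (0.95), Tyrobp, an adaptor of myeloid cells (0.93), and Srgn, the proteoglycan serglycin (0.92). For Calcrl these were Pkia, an inhibitor of protein kinase A (0.97), Asb12 (0.97) and the kinase gene Rps6ka3 (0.96), and for Adm the splicing factor gene Sf3b6 (0.93), 4632415L05Rik (0.93) and Tbck (0.91). Of these 15 partners 0 passed in the genotype comparison (adjusted p 0.134 to 0.996, limma).

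Beyond the receptor, lists of related genes were read with 1 probe set a gene, the brightest; over all 14321 genes tested, 56.7% had a higher and 43.3% a lower knockout mean, 19.1% had an unadjusted p under 0.05 and 9 genes (0.0628%) passed in limma with the p-values adjusted over all 26504 probe sets. In each of the 4 lists below 0 genes passed. In the list of Gs and cyclic AMP signalling, the arm downstream of both receptors, 18 of 38 tested genes were higher and 20 lower, with a median change of -0.01 where the median of all genes was 0.03; 12 reached an unadjusted p under 0.05, 7 higher and 5 lower. The kinase gene Grk6, whose product phosphorylates active receptors, had means of 9.83 ± 0.09 in wild type and 10.11 ± 0.07 in knockout (SD, n = 4 and 5), a change of 0.27 (SE 0.07, adjusted p 0.126, limma). Crem, a transcription factor that binds cyclic AMP response elements, stood at 8.79 ± 0.36 and 8.03 ± 0.29, a change of -0.76 (SE 0.19, adjusted p 0.129). Crtc3, a coactivator of CREB, stood at 10.25 ± 0.27 and 10.73 ± 0.14, a change of 0.48 (SE 0.13, adjusted p 0.135). The Grk6 and Crtc3 groups do not overlap, and the Crem groups overlap because wild type replicate 1, at 8.25, lay below knockout replicate 4, at 8.55.

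The list of related peptides and receptors, most of the same receptor class, gave 8 tested genes of 18. Of these 3 were higher and 5 lower, with a median of -0.08 and 2 at an unadjusted p under 0.05. The 8 include Crcp, which encodes the CGRP receptor component protein and is not a receptor of this class. Its change was -0.02 (SE 0.09, adjusted p 0.946, limma). Pth1r, the receptor of parathyroid hormone and its related peptide, had a change of 0.44 (SE 0.12, adjusted p 0.134, limma) and Crhr2, a receptor of urocortins, of 0.64 (SE 0.17, adjusted p 0.137), and in both all knockout arrays lay above all wild type arrays. The glucagon receptor gene Gcgr stood at 0.29 (SE 0.15, adjusted p 0.338). For Pth1r, Crhr2 and Crtc3, wild type replicate 3 was the lowest array, as it was on both tested Ramp1 probe sets.

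Peptide processing and clearance held 13 tested genes of 16, 4 higher and 9 lower, with a median of -0.12 and 2 at an unadjusted p under 0.05. Mme, which encodes neprilysin, a peptidase that cleaves vasoactive peptides, had means of 9.43 ± 0.23 in wild type and 8.96 ± 0.27 in knockout (SD, n = 4 and 5) without overlap, a change of -0.47 (SE 0.15, adjusted p 0.166, limma). Pcsk6, a proprotein convertase, stood at -0.39 (SE 0.16, adjusted p 0.228) and Ece1, the endothelin-converting enzyme, at -0.27 (SE 0.12, adjusted p 0.268). Hypoxia targets were listed because low oxygen is a known inducer of Adm. The list also holds Epas1 and Hif1a, genes of hypoxia-inducible factors. Of its 21 tested genes, 18 were lower, with a median of -0.16. At an unadjusted p under 0.05 (limma) there were 6, 5 lower and 1 higher. Fat markers also had mostly lower knockout means: adipocyte markers were lower in 13 of 13 tested genes (median -0.19, 0 passed), with means of 11.21 to 11.5 in wild type and 10.62 to 11.37 in knockout, and brown adipocyte markers in 9 of 10 (median -0.29, 0 passed), with means of 10.89 to 11.48 and 10.33 to 10.99. Endothelial markers were lower in 17 of 20 (median -0.23). The part of these cell types in the hypoxia list was not tested. The mitophagy gene Bnip3 stood at -0.28 (SE 0.07, adjusted p 0.128), P4ha2, which hydroxylates collagen prolines, at -0.35 (SE 0.12, adjusted p 0.184) and the hypoxia-inducible factor gene Epas1 at -0.17 (SE 0.07, adjusted p 0.220). Beside these, the changes of Adm were 0.0044 and 0.08. Without wild type replicate 1, 8 genes of the 4 lists passed: Bnip3, Creb1, Crem, Crhr2, Pde4b, Pde8a, Pth1r and Vegfa. That count comes from lists of 38, 8, 13 and 21 tested genes. It stands beside the 6.31% called in the same comparison, a share of all probe sets rather than of genes.

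**Figure D5:**
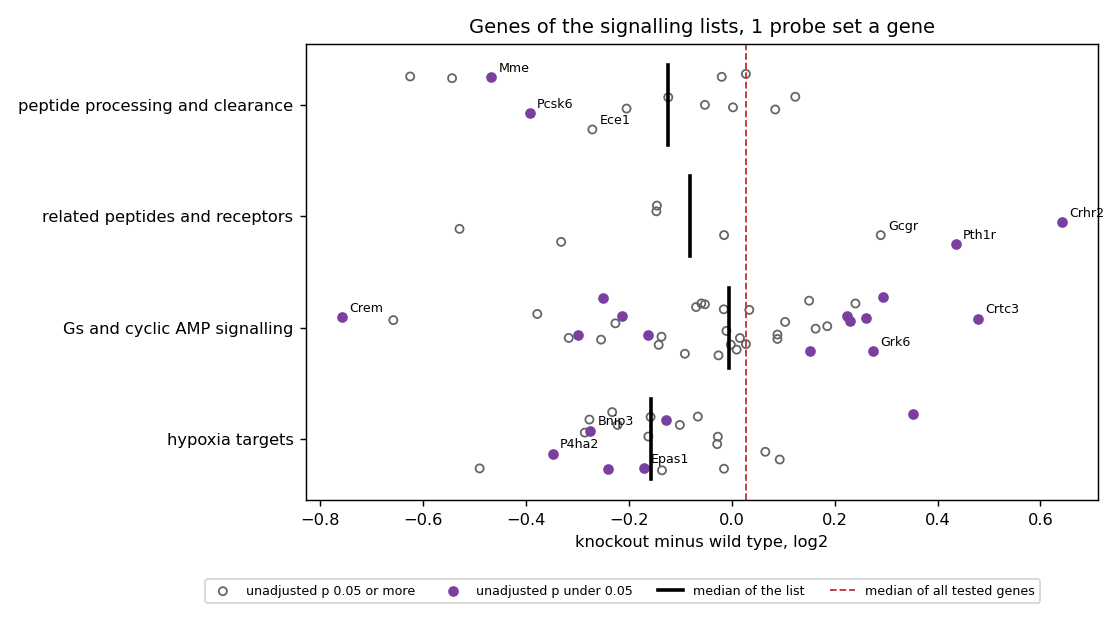
Log2 change (knockout minus wild type) of each tested gene of 4 lists (1 point a gene, filled at an unadjusted p under 0.05), with each list's median as a black bar and the median of all tested genes, 0.03, as a dashed line; the 3 genes with the smallest p of each list are named. Most genes of the hypoxia list lie left of the dashed line, and the cyclic AMP genes spread to both sides.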

How the data were processed

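Total RNA of whole aorta was measured on 1-colour Affymetrix arrays of 45101 probe sets. The submitters' processing notes name GCRMA, so the authors' deposited log2 values are background-corrected, normalized summaries of each probe set; the GCRMA version is not given in the sources used here. GCRMA shrinks low values toward background, so differences near 4 are less exact than those of bright probe sets. The log2 scale was read from the values, which run from about 2 to 15 on every array. The column of wild type replicate 2 is empty and was not used. The platform annotation gives a single symbol to 34945 probe sets, and those over 4 in 4 or more arrays were compared.

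The genotypes were compared in R 4.3.3 with limma 3.58.1 (lmFit, eBayes, no covariate) and Benjamini-Hochberg adjustment over all 26504 tested probe sets, with 95% intervals from the same fit. Single values were also compared by exact two-sided permutation. The procedure was also run on simulated data with independent noise and changes larger than those of the members. That run does not cover array effects shared by many probe sets. Named were all member probe sets, the 3 genes with the smallest p of each signalling list, the 3 genes most like each tested member and Ptgds. Crcp was named in addition. The members, lists and alternatives were chosen with earlier results of these data known. Precision is limited by the number of arrays. Alternatives were other normalization, filters, variance models, marker means as covariates, the replicate number as a block, 1 probe set a gene and leaving out arrays.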

Additional observations from a re-analysis of the deposited data

Results flagged for a closer look

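One member value lay apart from its group: Adm on probe set 1416077_at stood at 8.0 on knockout replicate 2, and the next knockout array at 7.68. The gap takes 0.725 of the range of the 5 arrays, above Dixon's critical value for 5 values. The other Adm probe set was also highest on that array, at 11.91. In all 24 sets of wild type or knockout values were examined and 1 was set apart in this way, where chance gives about 1 in 20.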

How the results depend on the processing

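Ramp1 kept its direction in all 23 alternatives on 1417481_at (0.30 to 0.47) and in all 22 on 1431413_at (0.43 to 0.70); Ramp3 on 1420401_a_at (-0.55 to -0.0059, 22 alternatives) and Calcrl on 1425814_a_at (0.01 to 0.13, 23 alternatives) kept theirs, as did Adm on 1416077_at (0.01 to 0.12, 22 alternatives). Ramp2 turned to 0.0604 with the endothelial mean as a covariate. Adm on 1447839_x_at, with a change of 0.0044, turned to -0.0129 with the neuron marker mean as a covariate and to -0.0475 with the replicate block, and ran from -0.0475 to 0.0430 without any 1 array. Called members numbered 1 with array weights and 0 to 2 without any 1 array, the 2 being without wild type replicate 1; genes of the signalling lists numbered 0 to 8.

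Calls over all probe sets moved most: 21 became 8 with 1 probe set a gene, fitted and adjusted over those 14321 alone, 66 with trend and robust options, 367 with array weights, 244 at an adjusted p under 0.10, 12, 5 and 2 with the neuron, adipocyte and endothelial means as covariates, 8 and 5 with the fibroblast and lymphatic endothelial means (added after seeing the data), and 6 without both arrays richest in neuron markers. Without any 1 array they ran from 6 to 1673: the 1673 came from omitting wild type replicate 1. Omitting knockout replicate 4 gave 31 and omitting wild type replicate 3 gave 14. Omitting wild type replicate 5 gave 7, as did knockout replicate 2, and each of wild type replicate 4 and knockout replicates 1, 3 and 5 gave 6. The cause was not tested. With the replicate block 1 probe set passed; same-numbered arrays are not known to be paired, and their deviations correlated at -0.27, -0.11, 0.07 and 0.15 for replicates 1, 3, 4 and 5. Filters, added normalization and a fold of at least 1.5 kept the count within 1.5 times. With 4 and 5 arrays, changes of Calcrl or Adm within their intervals are not excluded. An interval that leaves out 0 was not enough to pass the threshold. Both tested Ramp1 probe sets had such intervals and did not pass (adjusted p 0.134 and 0.136, limma).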
